A study of Homo sapiens with 6 samples.

Results

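The hyaluronan genes described here are 10 genes that make, break down or bind hyaluronan: UGDH, HAS2, HAS3, HYAL1, HYAL2, HYAL3, CEMIP, CEMIP2, CD44 and HMMR. They were picked by symbol, with Ensembl identifiers matched to symbols, out of 60664 genes counted by RNA-seq in SiHa PR cells. SiHa is an established human cervical carcinoma line, and PR stands for the parental cells, as opposed to derivatives selected for lymph node metastasis. RNA was sequenced from 3 control samples, labelled only SiHa PR, and from 3 samples of SiHa PR cells that overexpressed P4HA3, a subunit of the enzyme that hydroxylates prolines of collagen. The supplementary methods describe P4HA3 cDNA in the lentiviral pCDH vector and also a doxycycline-inducible P4HA3 construct. They do not say which of these the sequenced cells carried. In other assays the paper set P4HA3-overexpressing SiHa PR cells against vector cells. The labels do not say whether the control cells carried an empty virus, whether each line was a clone or a pool, or whether the 3 samples of a group were separate cultures, so the errors below measure the spread between these samples, which may be technical. The comparison asks which transcripts differ when P4HA3 is overexpressed. The 10 genes were chosen with the results of this same comparison known, so their values, fold changes and calls are given as a description, and no test of them is offered.

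Hyaluronan is a very long, unsulfated polysaccharide of the extracellular matrix. Unlike other glycosaminoglycans it is not built on a core protein in the Golgi, but is made at the plasma membrane by hyaluronan synthases, which join glucuronic acid and N-acetylglucosamine from their UDP-sugars and push the growing chain out of the cell. Outside the cell, long chains are cut by hyaluronidases and by the CEMIP proteins, and the pieces are taken up and finished off in lysosomes. Long and short chains are bound by surface receptors, of which CD44 is the best known, and turnover of hyaluronan has been studied widely in tumour invasion and in lymph nodes, whose vessels clear it.

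Promoter windows are shown for the 3 genes on which the description turns most: CEMIP, which fell furthest, UGDH, which rose, and HMMR, whose log2 fold change had the largest standard error of the 9 tested genes. Each window holds 300 bases around the RefSeq start site in GRCh38.p14, most of them before it, is written 5′ to 3′ on the strand of the gene, and has motifs found by letter search in capitals. RefSeq windows were matched for 9 of the 10 genes.
CEMIP promoter, chr15:80779120-80779419, plus strand: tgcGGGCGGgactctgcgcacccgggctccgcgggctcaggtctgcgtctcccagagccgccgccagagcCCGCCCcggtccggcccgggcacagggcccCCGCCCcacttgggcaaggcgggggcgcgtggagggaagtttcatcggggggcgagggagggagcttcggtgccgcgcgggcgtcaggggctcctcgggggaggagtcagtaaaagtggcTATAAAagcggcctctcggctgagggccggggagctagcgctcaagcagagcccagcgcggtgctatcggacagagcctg
UGDH promoter, chr4:39527390-39527689, minus strand: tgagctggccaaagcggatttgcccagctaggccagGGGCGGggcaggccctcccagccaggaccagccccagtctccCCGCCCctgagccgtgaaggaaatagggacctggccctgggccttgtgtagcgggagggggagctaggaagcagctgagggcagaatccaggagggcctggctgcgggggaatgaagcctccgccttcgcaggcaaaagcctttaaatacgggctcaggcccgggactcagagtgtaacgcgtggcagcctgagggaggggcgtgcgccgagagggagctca
HMMR promoter, chr5:163460382-163460681, plus strand: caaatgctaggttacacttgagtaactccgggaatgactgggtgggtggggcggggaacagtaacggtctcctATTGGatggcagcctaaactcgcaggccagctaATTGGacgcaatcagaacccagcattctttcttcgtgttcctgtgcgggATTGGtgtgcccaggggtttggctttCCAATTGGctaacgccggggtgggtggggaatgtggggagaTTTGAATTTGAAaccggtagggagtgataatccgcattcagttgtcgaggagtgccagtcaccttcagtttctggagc
In the CEMIP window, the capitals mark a TATA box (TATAAA) at -30 from the start site and Sp1 boxes (GGGCGG, or CCGCCC on the other strand) at -247, -180 and -150. CEMIP was the only one of the 9 genes with TATAAA in its window, a motif that 11.5% of all 35116 RefSeq windows held on either strand. The capitals in the UGDH window mark Sp1 boxes at -214 and -172. An Sp1 box was in the windows of 8 of the 9 genes and in 45% of all windows. In the HMMR window, the capitals mark CCAAT boxes (CCAAT, or ATTGG on the other strand) at -177, -144, -95, -69 and -66, the last pair overlapping, and the motif TTTGAA at -28 and -22, known from promoters of cell cycle genes as the CHR element. An Sp1 box at -202 in the HMMR window was left in lower case. HMMR alone among the 9 genes had either motif. CCAAT was in 34.6% and TTTGAA in 15.2% of all windows. At least 5 CCAAT boxes were in 0.359% of windows and at least 2 TTTGAA in 2.27%, limits that were set after the HMMR matches were seen. Neither TGACTCA, the letters of an AP-1 site, nor TGACGTCA, those of a CRE, was in any of the 9 windows, compared with 4.95% and 1.85% of all windows. A match or its absence describes these letters only.

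The libraries held between 21773488 and 24939948 counts each. P4HA3 itself had 86, 62 and 93 counts in the control samples and 45042, 44775 and 49097 counts in the samples with overexpression. In CPM, the counts scaled to a common library size and normalized by TMM, which scales libraries on the bulk of their genes, P4HA3 was at 3.41 ± 0.457 (SD, n = 3) in control and 1954 ± 32.6 (SD, n = 3) in P4HA3-overexpressing cells, so every sample matched its label. Across all 15130 genes tested, the fold change followed the GC content of the transcript (Spearman's rho = -0.58 across 15107 genes, which are not independent replicates): GC-poor transcripts tended to be higher and GC-rich ones lower with P4HA3. The libraries of 1 group also differed in this respect, their deviations from the mean of their own group having rho values with GC of 0.22, 0.38 and -0.52 in control replicates 1 to 3 and 0.45, -0.48 and 0.08 in P4HA3 replicates 1 to 3. Its part in each fold change was not tested, and the fold change with a correction for GC content and length is therefore given beside the uncorrected one. Summed CPM of 7 epithelial markers was 7398 to 8517 in control and 6257 to 7298 in P4HA3 samples, with KRT5 at 3 to 4 counts. CDH1 (log2 fold change -0.77), KRT17 (-0.32) and KRT18 (-0.40) were lower at an adjusted p under 0.05 (edgeR), and EPCAM, KRT8 and KRT19 did not pass. With a correction for GC content and length, CDH1 (-0.81) and KRT18 (-0.21) still passed and KRT17 (-0.09) did not. Of 7 smooth muscle markers, MYH11, DES, CNN1 and LMOD1 were at 9 counts or fewer in every library, and the list summed to 95.3 to 105 CPM in control and 94.3 to 112 CPM in P4HA3 samples. Most of this sum was SMTN, with means of 93.3 and 95.9 CPM, followed by ACTA2 with 7.78 and 7.98 CPM. SMTN was called higher with the correction (0.27) and not without it (0.04). The 7 fibroblast markers summed to 188 to 198 CPM and 148 to 189 CPM. Of them LUM was called lower with the correction (-0.41) and not without it (-0.16). The 4 endothelial markers summed to 2.57 to 3.47 CPM and 1.33 to 1.62 CPM. Nearly all of this was PECAM1, with means of 2.89 and 1.4 CPM, called lower without (-1.03) and with (-1.08) the correction. CDH5, VWF and KDR had at most 2 counts in any library. The 4 leukocyte markers summed to at most 0.123 CPM. In bulk RNA, fewer cells of a type and less RNA per cell cannot be told apart.

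Of the 10 hyaluronan genes, 9 had enough counts to be tested and HYAL1 did not. UGDH rose with P4HA3 overexpression, CEMIP, HYAL2 and HYAL3 fell, and HAS2, HAS3, CEMIP2, CD44 and HMMR did not pass the threshold (edgeR quasi-likelihood fit, adjusted p under 0.05 over all genes). CEMIP stood apart by size, with a level in P4HA3-overexpressing cells of 29.4% of that in control. The other 8 tested genes had fold changes between -0.31 and 0.68 on the log2 scale. For comparison, 20.8% of all tested genes were called, 9.36% higher and 11.4% lower, and since the 10 genes were chosen on this contrast nothing is read from the difference. The groups did not overlap in CPM for 6 of the 9 tested genes, beside 40.1% of all tested genes. The median log2 fold change of the 9 genes was -0.180, and that of all genes 0.006.

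**Figure D1:**
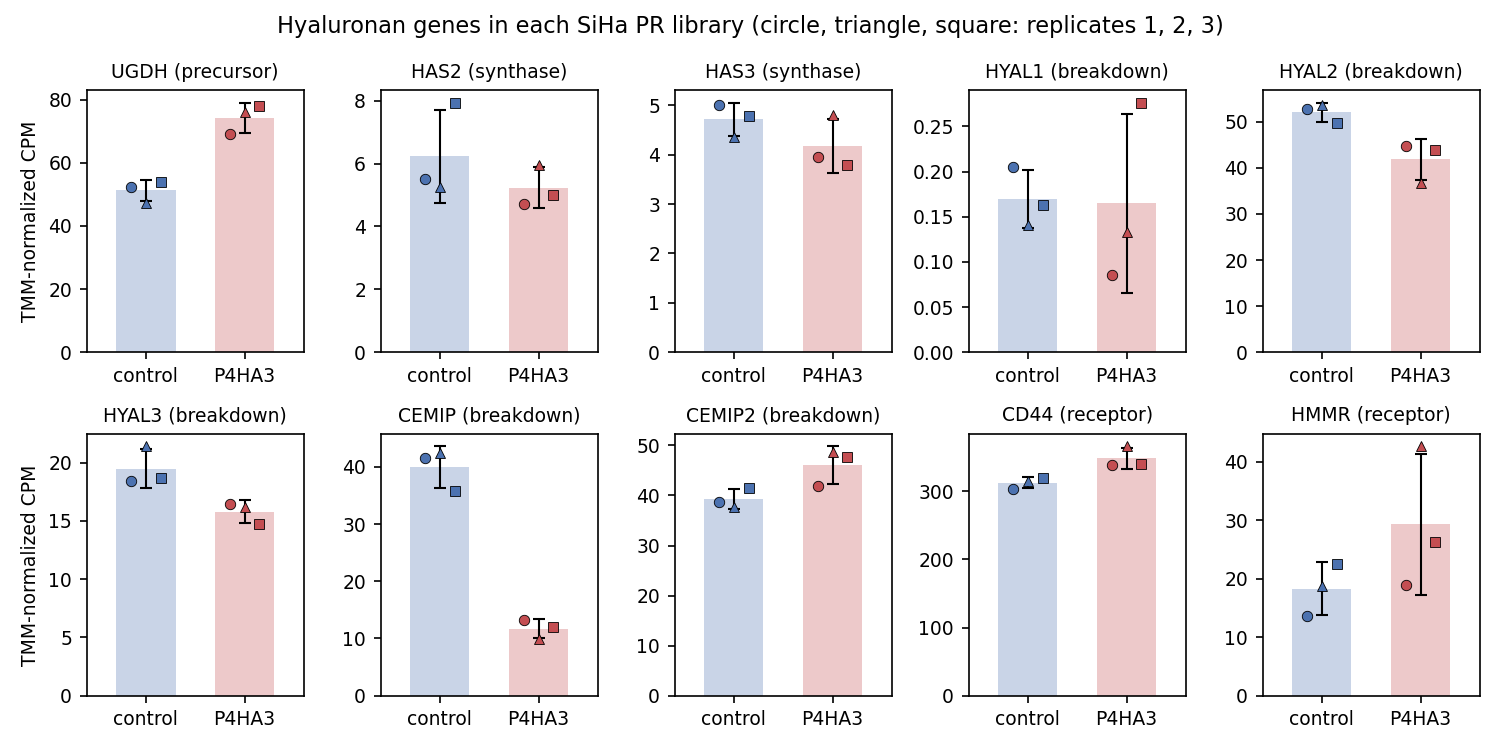
TMM-normalized CPM of each hyaluronan gene in every library, with control in blue and P4HA3 overexpression in red; bars are means of 3 samples, error bars are SD, and circles, triangles and squares are replicates 1, 2 and 3. The 3 P4HA3 samples of CEMIP lie between 9.96 and 13.2 CPM, all under the lowest control sample at 35.7 CPM, and those of HMMR spread from 18.9 to 42.6 CPM.

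UGDH (chromosome 4, 39498755 to 39528311, minus strand of GRCh38) encodes UDP-glucose dehydrogenase, which makes the UDP-glucuronic acid that the synthases consume. UGDH had 52.4, 47.4 and 54.0 CPM in the control samples and 69.0, 76.0 and 77.9 CPM in the P4HA3 samples. All 3 P4HA3 samples were above all 3 control samples. The mean rose from 51.3 ± 3.44 to 74.3 ± 4.68 CPM (SD, n = 3 each), a log2 fold change of 0.53 with a standard error of 0.0723 and a 95% interval from 0.37 to 0.70. UGDH is GC-poor, with 39.5% GC, and with the GC and length correction its log2 fold change was 0.35 (95% interval 0.24 to 0.46), still called higher. The gene ranked 443 of 15130 from the highest log2 fold change. Its exons share 513 bases with the antisense RNA UGDH-AS1, which had 1.46% to 3.03% of the UGDH count in each library.

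The synthases themselves were expressed at low levels. HAS2 (chromosome 8, 121612116 to 121641440, minus strand), the synthase that makes very long chains, had 134, 112 and 194 counts in control and 110, 134 and 127 counts with P4HA3. In CPM these were 5.50, 5.26 and 7.93 in control and 4.72, 5.96 and 5.01 with P4HA3. The groups overlapped, and control replicate 3 stood above the other 5 samples. The means were 6.23 ± 1.48 and 5.23 ± 0.647 CPM (SD, n = 3), and the log2 fold change was -0.26, with a standard error of 0.169 and a 95% interval from -0.63 to 0.12. Without control replicate 3 it was -0.04. HAS2 is GC-poor, with 37.2% GC, but its fold change was negative. With the GC and length correction its log2 fold change was -0.50 (95% interval -0.78 to -0.21), and it was then called lower. The exons of HAS2 share 251 bases with HAS2-AS1 on the other strand. HAS2-AS1 amounted to 11.9% to 30.9% of the HAS2 count in the 6 libraries and was at 0.984 ± 0.0434 CPM in control and 1.37 ± 0.0997 CPM with P4HA3 (log2 fold change 0.47, not called). The counting is not stated to use strand, and without it reads from the shared bases cannot be assigned to either gene.

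HAS3 (chromosome 16, 69105653 to 69118719, plus strand), a synthase of shorter chains, had 5.01, 4.36 and 4.78 CPM in control and 3.95, 4.80 and 3.78 CPM with P4HA3. P4HA3 replicate 2 lay within the control range and the other P4HA3 samples under it. The log2 fold change was -0.18, with a standard error of 0.133 and a 95% interval from -0.47 to 0.11, and with the correction -0.15. The exons of HAS3 share 365 bases with CHTF8 and DERPC on the other strand. CHTF8 amounted to 4.92% to 22.8% of the HAS3 count (log2 fold change 0.93, not called), and DERPC had 0 counts. The third synthase gene, HAS1, had 1 count in control replicate 1, 1 in P4HA3 replicate 3 and 0 in the other libraries. Per exon length, HAS2 was at 1.35, 1.48 and 2.03 times the level of HAS3 in control and at 1.47, 1.52 and 1.62 times in P4HA3 samples, so the ratio of both synthases overlapped between the groups.

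CEMIP (chromosome 15, 80779343 to 80951776, plus strand), also called KIAA1199 or HYBID, binds hyaluronan and is needed for its depolymerization by fibroblasts and other cells. It had 1011, 905 and 874 counts in the control samples and 307, 224 and 305 counts in the P4HA3 samples, or 41.5, 42.5 and 35.7 CPM compared with 13.2, 9.96 and 12 CPM. Each P4HA3 sample was far under each control sample. The means were 39.9 ± 3.66 and 11.7 ± 1.63 CPM (SD, n = 3), and the log2 fold change was -1.77, with a standard error of 0.111 and a 95% interval from -2.01 to -1.52. Only 7 of the 15130 tested genes had a lower log2 fold change. At 53.1% GC, CEMIP was little moved by the GC and length correction, under which its log2 fold change was -1.75 (95% interval -1.98 to -1.52). It was called lower in all 15 alternative fits, and its log2 fold change ran from -1.85 to -1.66 when each library was left out in turn. CEMIP shares 224 exon bases, 203 of them coding, with MESD on the other strand, and MESD was at 124 ± 4.75 CPM in control and 128 ± 5.54 CPM with P4HA3 (log2 fold change 0.05, not called).

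CEMIP2 (chromosome 9, 71683366 to 71816690, minus strand), formerly TMEM2, is the membrane-bound relative of CEMIP and has been described as a cell surface hyaluronidase. CEMIP2 had 38.7, 37.6 and 41.5 CPM in control and 41.8, 48.7 and 47.7 CPM with P4HA3. The groups did not overlap, but P4HA3 replicate 1 was close to control replicate 3. The log2 fold change was 0.23 (standard error 0.0772, 95% interval 0.06 to 0.40), not called, and 0.09 with the correction. Without P4HA3 replicate 1 it was 0.30 and was called higher. Per exon length, CEMIP was at 1.3, 1.37 and 1.04 times the level of CEMIP2 in the control samples and at 0.383, 0.248 and 0.306 times in the P4HA3 samples, so that the order of both genes was turned in all 3 P4HA3 samples. This order depends on the length used: by the length of the canonical transcript, CEMIP was already under CEMIP2 in control cells, with means of 10.8 and 12.7 TPM, which is the count per length scaled to a common total per library.

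HYAL1, HYAL2 and HYAL3 lie side by side on the minus strand of chromosome 3, HYAL3 at 50292831 to 50299405, HYAL1 at 50299890 to 50312381 and HYAL2 at 50317790 to 50322782. HYAL2, a GPI-anchored enzyme that cuts long chains at the cell surface, had 52.7, 53.7 and 49.8 CPM in control and 44.8, 36.8 and 43.9 CPM with P4HA3. HYAL3, whose own enzymatic activity is weak or disputed, had 18.4, 21.4 and 18.7 CPM in control and 16.5, 16.2 and 14.7 CPM with P4HA3. For both genes all P4HA3 samples were under all control samples. The log2 fold change of HYAL2 was -0.31 (standard error 0.0822, 95% interval -0.50 to -0.13) and that of HYAL3 -0.30 (standard error 0.0925, 95% interval -0.51 to -0.10). Both are GC-rich, with 60.1% and 60.6% GC, and neither call was kept with the correction, where the values were -0.11 (95% interval -0.22 to 0.00) for HYAL2 and -0.09 (95% interval -0.27 to 0.09) for HYAL3. The call of HYAL2 was also lost without control replicate 1 (-0.31), control replicate 2 (-0.29) or P4HA3 replicate 3 (-0.35). That of HYAL3 was lost without control replicate 1, 2 or 3 or P4HA3 replicate 3, with values from -0.34 to -0.23. HYAL2 shares 509 exon bases, 463 of them coding, with TUSC2 on the same strand, and HYAL3 shares 232 with NAA80 and 43 with IFRD2, also on the same strand, so reads from these stretches cannot be assigned by strand. TUSC2 and IFRD2 each had a log2 fold change of -0.11 (not called), and NAA80 one of -0.44 (called lower), or -0.20 (not called) with the correction.

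HYAL1, the lysosomal hyaluronidase, had 5, 3 and 4 counts in control and 2, 3 and 7 counts with P4HA3. At this depth no difference in HYAL1 was detectable. The other members of the hyaluronidase family were near 0: HYAL4 had 3, 1 and 1 counts in control and 1, 0 and 2 with P4HA3, and SPAM1, the sperm hyaluronidase, had 0 counts in all 6 libraries.

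CD44 (chromosome 11, 35138882 to 35232402, plus strand), the main surface receptor for hyaluronan, was the most abundant of the 10 genes. It had 304, 316 and 319 CPM in control and 339, 366 and 340 CPM with P4HA3. The groups did not overlap, and the means of 313 ± 7.81 and 348 ± 15.1 CPM (SD, n = 3) gave a log2 fold change of 0.15 (standard error 0.0557, 95% interval 0.03 to 0.28), not called. With the GC and length correction it was 0.03. CD44 was called higher without P4HA3 replicate 1, with a log2 fold change of 0.17. The gene is spliced into standard and variant forms, which counts per gene do not resolve.

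HMMR (chromosome 5, 163460203 to 163491941, plus strand) encodes RHAMM, a protein that binds hyaluronan at the cell surface and, inside the cell, sits on the mitotic spindle. It had 332, 401 and 550 counts in control and 440, 959 and 668 counts with P4HA3, or 13.6, 18.8 and 22.5 CPM compared with 18.9, 42.6 and 26.3 CPM. P4HA3 replicate 2 stood above the other 5 samples, and P4HA3 replicate 1 lay within the control range. The means were 18.3 ± 4.44 and 29.3 ± 12.2 CPM (SD, n = 3), and the log2 fold change was 0.68, with a standard error of 0.261, the largest of the 9 tested genes, and a 95% interval from 0.10 to 1.26. Without P4HA3 replicate 2 it was 0.31, and without P4HA3 replicate 1 it was 0.91 and called higher. HMMR has the lowest GC content of the 10 genes, 36.2%, and with the correction its log2 fold change was 0.42 (95% interval -0.01 to 0.85), not called. In each group, the sample with the most HMMR (control replicate 3 and P4HA3 replicate 2) was also the library whose deviations had the most negative rho with GC, and the part of this in the HMMR values was not tested.

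**Figure D2:**
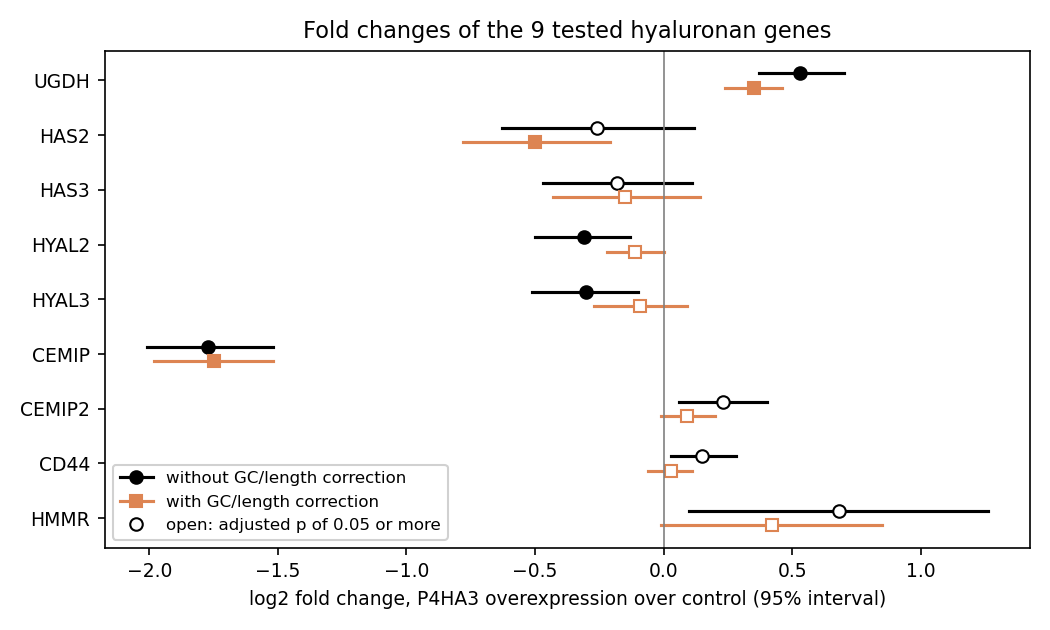
Log2 fold change of the 9 tested hyaluronan genes, P4HA3 overexpression over control, with 95% intervals; black circles are without and orange squares with the GC and length correction, and open symbols did not pass an adjusted p of 0.05. CEMIP stayed at -1.77 and -1.75, while HYAL2 moved from -0.31 to -0.11 and HAS2 from -0.26 to -0.50.

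With the correction, 2 of the 9 tested genes kept their call, CEMIP lower and UGDH higher, and HAS2 was added as lower, beside 18.5% of all tested genes called (9.23% higher and 9.29% lower). The median log2 fold change of the 9 genes was then -0.089. The correction took the rho of log2 fold change with GC content from -0.58 to -0.01 across genes. It is fitted to this trend in each library, so a rho near 0 follows from its construction. Any difference due to P4HA3 that follows GC content would be taken out with it.

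**Figure D3:**
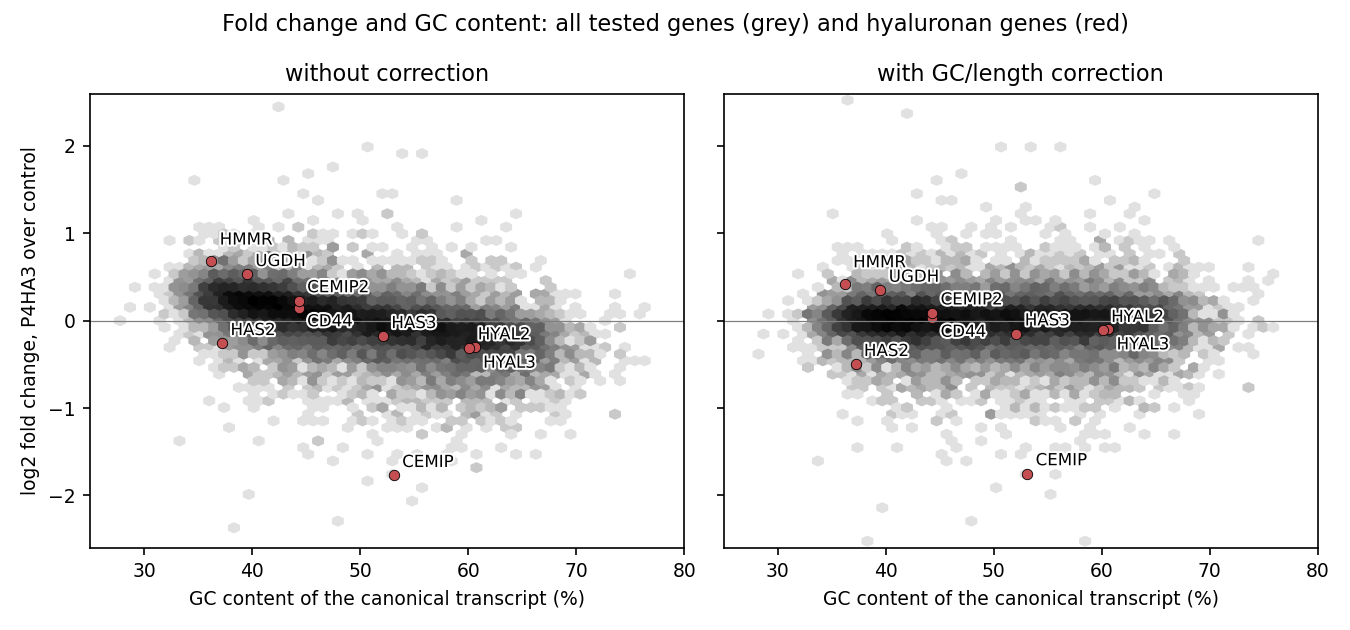
Log2 fold change of all tested genes against the GC content of their canonical transcript in percent, without (left) and with (right) the GC and length correction; grey cells are darker where they hold more genes, and red points are the 9 tested hyaluronan genes. P4HA3, at 9.15, lies outside the axis. The grey band slopes down on the left (rho = -0.58) and is flat on the right (rho = -0.01), where the fitted trend was taken out, and CEMIP lies far under the band in both.

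To compare the 10 genes with each other, counts were divided by exon length and scaled to TPM. In control cells CD44 was highest, at 111 ± 5.32 TPM (SD, n = 3). UGDH followed at 45.0 ± 4.43 and HYAL2 at 41.5 ± 0.390 TPM, with overlapping ranges, then HYAL3 at 34.9 ± 2.21 TPM. CEMIP at 18.4 ± 1.14, HMMR at 16.5 ± 4.35 and CEMIP2 at 15 ± 1.28 TPM came next, and the range of HMMR took in those of CEMIP and CEMIP2, which did not overlap each other. HAS2 at 5.21 ± 1.41, HAS3 at 3.20 ± 0.290 and HYAL1 at 0.194 ± 0.0389 TPM closed the order. By the length of the canonical transcript, HYAL2 (55.1 TPM) came before UGDH (33.7 TPM), and CEMIP fell behind CEMIP2 and HMMR. The synthases were thus at lower levels than every breakdown gene but HYAL1 in control cells by either length.

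In P4HA3-overexpressing cells CD44 at 129 ± 9.38, UGDH at 68.5 ± 6.88 and HYAL2 at 35.0 ± 3.13 TPM (SD, n = 3) were again at the top, and the ranges of UGDH and HYAL2 no longer overlapped. HYAL3 at 29.7 ± 1.44, HMMR at 27.8 ± 12.3 and CEMIP2 at 18.5 ± 2.18 TPM came next, with the range of HMMR overlapping those of HYAL2, HYAL3 and CEMIP2. CEMIP had moved down to 5.68 ± 0.634 TPM, next to HAS2 at 4.58 ± 0.701 TPM and with a range that overlapped that of HAS2, above HAS3 at 2.98 ± 0.452 and HYAL1 at 0.200 ± 0.124 TPM. The summed TPM of the 5 breakdown genes was 109, 112 and 109 in control and 87.7, 87.8 and 91.8 in P4HA3 samples. CEMIP made up 17.6%, 17.0% and 15.6% of that sum in control and 6.97%, 5.64% and 6.51% with P4HA3. CEMIP2 made up 13.5%, 12.4% and 15%, and 18.2%, 22.7% and 21.3%. HYAL2 was at 2.18 to 2.40 times the level of CEMIP in control samples and at 5.86 to 6.36 times in P4HA3 samples. These ratios and shares depend on the length used: by the canonical transcript, mean HYAL2 and CEMIP were 55.1 and 10.8 TPM in control and 46.6 and 3.34 TPM with P4HA3. These are transcript levels, and no enzyme activity or hyaluronan was measured in these files.

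**Figure D4:**
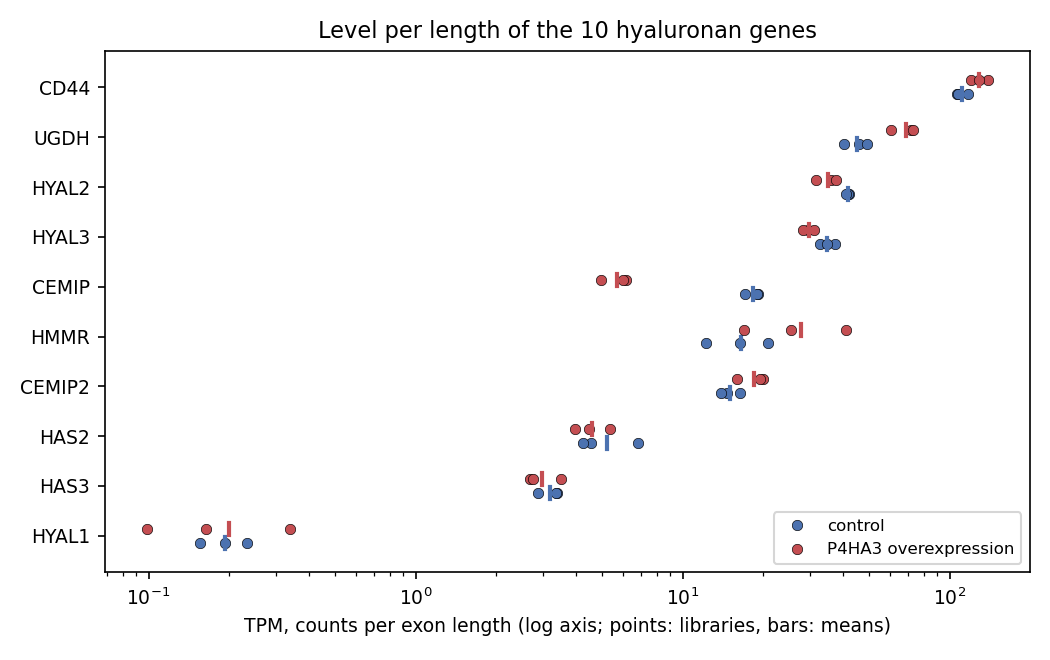
Level per exon length (TPM, log axis) of the 10 hyaluronan genes, ordered by the control mean, with control in blue and P4HA3 overexpression in red; points are libraries and vertical bars are means of 3 samples. CD44 lies at the top in both groups, and CEMIP moves from 18.4 to 5.68 TPM, next above HAS2 at 4.58 TPM.

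Around these 10 genes, 58 further genes of the hyaluronan pathway were listed by role, and 43 had enough counts to be tested. These lists too were chosen with earlier results of these data known. Their counts and p-values here and below are therefore a description, and nothing is read from their difference to the shares over all genes. With P4HA3, 10 were higher and 4 lower (edgeR, adjusted p under 0.05), and 29 did not pass, with a median log2 fold change of 0.049. Of all tested genes, 9.36% were called higher and 11.4% lower, with a median of 0.006. With the GC and length correction 5 were higher and 7 lower, with a median of -0.023, beside 9.23% higher and 9.29% lower among all tested genes. The correction added TLR4, UAP1, ADAM17 and ANK3 as lower and DYNLL1 as higher, genes named here after their values were seen, with corrected log2 fold changes of -0.34, -0.19, -0.16, -0.62 and 0.17.

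Of the 8 genes listed for the making and use of UDP-sugars, all were tested, 3 rose and 2 fell, beside 9.36% higher and 11.4% lower of all tested genes. With the GC and length correction 0 were called higher and 3 lower, beside 9.23% and 9.29%. GFPT1 and GFPT2 encode forms of the enzyme that opens the hexosamine pathway to UDP-N-acetylglucosamine, and moved in opposite directions. GFPT1 had 82.7, 75.7 and 87.8 CPM in control and 99.7, 116 and 101 CPM with P4HA3 (log2 fold change 0.36, standard error 0.0766, edgeR adjusted p = 0.0121). GFPT2 had 25.8, 25.4 and 24.5 CPM in control and 17.8, 18.1 and 18.8 CPM with P4HA3 (log2 fold change -0.47, standard error 0.0740, edgeR adjusted p = 0.00361). The groups overlapped for neither gene. GFPT2 kept its call in all 15 alternative fits, with -0.43 under the GC and length correction. GFPT1 was at 0.09 with the correction and lost its call there and without control replicate 1 or 2. PGM3, a mutase of the same pathway, rose from 28.2 ± 2.05 to 35.5 ± 3.88 CPM (log2 fold change 0.33, edgeR adjusted p = 0.0327), with 0.09 and no call after the correction. PGM1, which interconverts glucose phosphates on the way to UDP-glucose, fell from 208 ± 5.44 to 180 ± 12 CPM (log2 fold change -0.20, edgeR adjusted p = 0.0396) and was at -0.16, still called, after it. UGP2, which makes the UDP-glucose that UGDH oxidizes and was named after its value was seen, had a log2 fold change of 0.20 (edgeR adjusted p = 0.0477), and 0.02 with no call after the correction. Its call was also lost by limma-voom and without any single library other than P4HA3 replicate 1 (0.15 to 0.23). The call of PGM3 was lost without any one library other than P4HA3 replicate 1 (0.24 to 0.40), and that of PGM1 without control replicate 1 or 2 or P4HA3 replicate 2 or 3 (-0.21 to -0.15).

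Among lysosomal enzymes that strip sugars from the ends of hyaluronan pieces, GUSB, the beta-glucuronidase, fell from 61.6 ± 0.827 to 52.2 ± 0.523 CPM (SD, n = 3; log2 fold change -0.24, edgeR adjusted p = 0.0171). With the correction GUSB was at -0.11 and not called, and its call was also lost without control replicate 1 or 2 or P4HA3 replicate 3 (-0.24 to -0.23). Of 6 other receptors, 3 were tested and 0 passed with edgeR, DESeq2 or limma-voom, with 1, LAYN, at an unadjusted edgeR p under 0.05. With the correction 1 receptor, TLR4, was called lower. LYVE1, the receptor of lymphatic endothelium, had 0 counts in all libraries, and STAB2, a scavenger receptor of sinusoids, had 1 count in P4HA3 replicate 3 and 0 elsewhere. Of 16 genes whose products bind or link hyaluronan in the matrix, 7 were tested and 0 passed with any of the 3 tools. HAPLN2 and HAPLN3 were the 2 at an unadjusted edgeR p under 0.05. Beside the 0 calls in these lists, 20.8% of all tested genes were called with edgeR.

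Of the 5 proteases and secretase subunits that cleave CD44, 0 passed with edgeR or limma-voom, beside 20.8% of all tested genes called with edgeR. ADAM10 was at an unadjusted edgeR p under 0.05 and was called by DESeq2. With the correction ADAM17 was called lower. Of 5 regulators of CD44 splicing 1 rose and 1 fell, beside 9.36% higher and 11.4% lower of all tested genes. ESRP1, an epithelial splicing factor that favours variant exons of CD44, had 41, 43 and 51 counts in control and 30, 28 and 26 counts with P4HA3. The groups did not overlap (log2 fold change -0.70, standard error 0.184, edgeR adjusted p = 0.0255), and the value with the correction was -0.84. Its call was lost without any one of the 3 control replicates or without P4HA3 replicate 3 (-0.80 to -0.60), and DESeq2 gave no adjusted p for it. ESRP2, of the same list and named after its value was seen, was far more abundant, at 120 ± 5.77 CPM in control and 107 ± 2.92 CPM with P4HA3. It was not called (log2 fold change -0.16, and -0.02 with the correction). TRA2B, the splicing regulator that rose, was named after its value was seen and had a log2 fold change of 0.18 (edgeR adjusted p = 0.0441), and 0.01 with no call after the correction. Its call was also lost when any 1 of the 6 libraries was left out (0.15 to 0.20). Of 6 genes that tie CD44 to actin and the membrane skeleton, RDX and IQGAP1 rose, beside 9.36% of all tested genes called higher. With the correction 1 of the 6, RDX, was called higher and 1, ANK3, lower, beside 9.23% and 9.29%. RDX, or radixin, went from 112 ± 10.8 to 148 ± 16.4 CPM (log2 fold change 0.40, edgeR adjusted p = 0.0154), and to 0.16, still called, with the correction. IQGAP1, a scaffold that binds actin, went from 432 ± 29.7 to 537 ± 70.5 CPM with overlapping groups (log2 fold change 0.31, edgeR adjusted p = 0.0388), and was at 0.14 and not called with the correction. The call of RDX was lost without control replicate 1 or 2 or P4HA3 replicate 3 (0.34 to 0.40), and that of IQGAP1 without control replicate 1 or 2 or P4HA3 replicate 2 or 3 (0.22 to 0.31).

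Of the 6 partners of HMMR at the spindle, TPX2, AURKA, FAM83D and BARD1 rose and BRCA1 and DYNLL1 did not pass, beside 9.36% of all tested genes called higher. TPX2, which carries the kinase AURKA to spindle microtubules, had 456, 441 and 451 CPM in control and 581, 620 and 590 CPM with P4HA3 (log2 fold change 0.41, standard error 0.0550, edgeR adjusted p = 0.00179). AURKA itself had 214, 194 and 205 CPM in control and 273, 257 and 269 CPM with P4HA3 (log2 fold change 0.38, standard error 0.0571, edgeR adjusted p = 0.0029). FAM83D, which brings a kinase to the spindle with HMMR, had 223, 221 and 225 CPM and 283, 289 and 281 CPM (log2 fold change 0.35, standard error 0.0496, edgeR adjusted p = 0.00234). For these 3 genes all P4HA3 samples were above all control samples, and the calls were kept in all 15 alternative fits, with 0.35, 0.31 and 0.39 under the GC and length correction. In contrast to HMMR, P4HA3 replicate 2 did not stand apart in them. BARD1, a partner of BRCA1, had a log2 fold change of 0.30 (edgeR adjusted p = 0.0493) that was 0.05 with the correction, and its call was also lost with DESeq2, with library sizes alone, with a stricter count minimum and without control replicate 1 or 2 or P4HA3 replicate 2 or 3 (0.25 to 0.31 in these). For BRCA1, as for HMMR, P4HA3 replicate 2 was the highest sample. The values were 20.9, 22 and 22.7 CPM in control and 22.9, 36.3 and 28.1 CPM with P4HA3. With a log2 fold change of 0.41, BRCA1 did not pass (edgeR adjusted p = 0.0599). It was called higher without P4HA3 replicate 1 (0.56), with DESeq2 (0.41) and with no filter on low counts (0.42), and was at 0.22 without P4HA3 replicate 2. The median of the 6 genes was 0.366, and 0.259 with the correction, where 4 were called higher. Whether the difference between HMMR and TPX2, AURKA and FAM83D exceeds their spread was not tested.

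**Figure D5:**
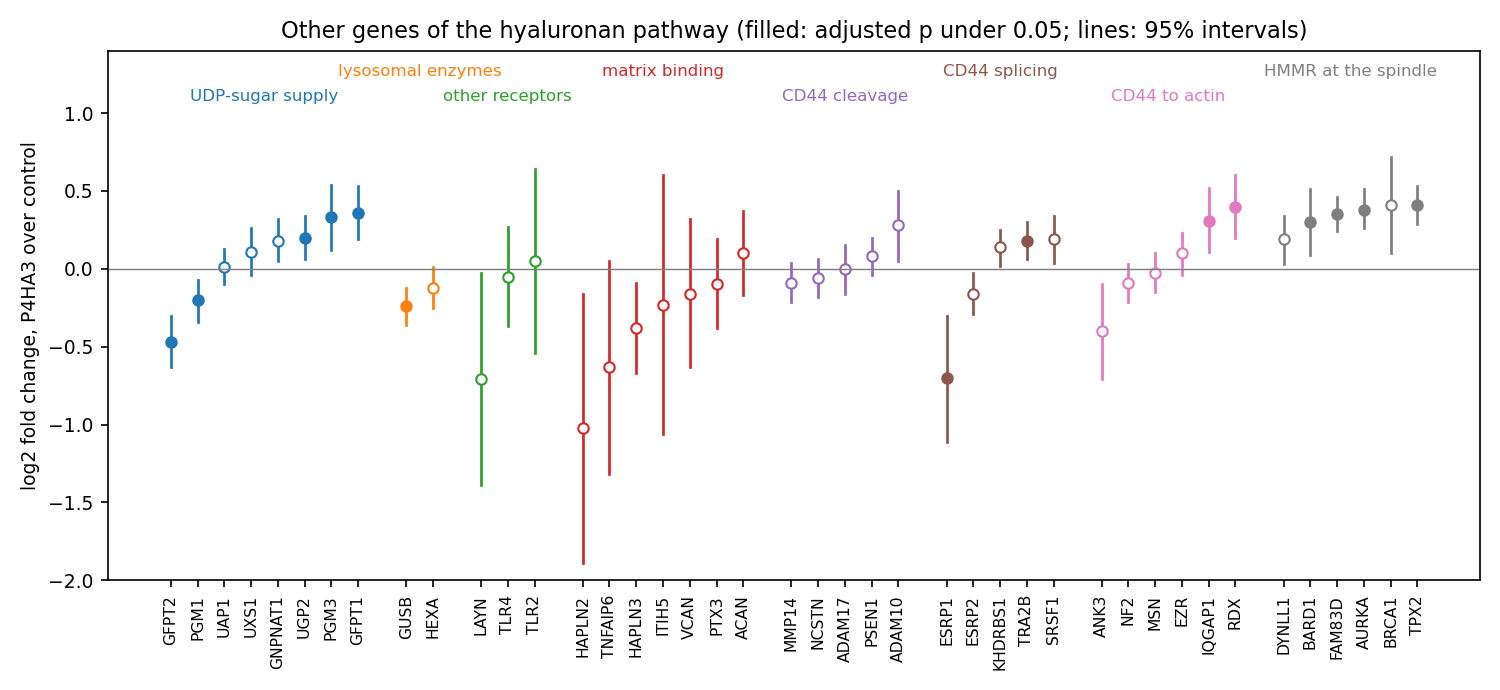
Log2 fold change, P4HA3 overexpression over control, of tested further genes of the hyaluronan pathway, grouped by role and ordered within each role; lines are 95% intervals and filled points passed an adjusted p of 0.05. In the group at the right end, HMMR at the spindle, the filled points are TPX2, AURKA, FAM83D and BARD1, at 0.30 to 0.41, and GFPT2 at -0.47 is set against GFPT1 at 0.36 within UDP-sugar supply.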

How the data were processed

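RNA was sequenced from 3 control and 3 P4HA3-overexpressing samples of SiHa PR cells. According to the supplementary methods, poly-A RNA was used for stranded (dUTP) libraries, which were read from both ends on a DNBSEQ-T7, aligned with STAR to GRCh38 with Ensembl104 and counted per gene with HTSeq. The submitters' processing notes name HISAT2 instead, with the build GRCh38. Versions of the tools, the strand setting and the treatment of reads with several matches are not given in the sources used here. The growth protocol in the labels describes smooth muscle tissue, but SiHa is given by the paper and by the labels for source and cell line.

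The authors deposited raw counts for 60664 Ensembl genes, 1 column per library, without normalization. No other values were used. Of the identifiers, 60463 matched the GENCODE annotation used for symbols, positions, lengths and GC content. Total counts per library ran from 21773488 to 24939948, so a gene of 1 CPM rests on few counts and its difference is limited by counting.

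The test was run with edgeR 4.0.16 under R 4.3.3, with filterByExpr at a minimum count of 10, TMM factors, and a two-sided quasi-likelihood test of group across all 6 libraries, with Benjamini-Hochberg adjustment over the 15130 genes kept. A gene was called at an adjusted p under 0.05. Standard errors are the log2 fold change divided by the root of the F statistic, and intervals are at 95%. TPM was computed from counts and the union of exons. The GC and length correction is an offset per library, smoothed over GC content and log length of the canonical transcript with mgcv 1.9.3. Other alternatives were DESeq2 1.42.0, limma-voom (limma 3.58.1), RLE factors, library sizes alone, no filter, at least 10 counts in every library, a replicate block, each library left out, and an adjusted p under 0.01. The fit and the correction were tested on simulated data.

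The 10 genes and the lists of 58 further genes were chosen with earlier results of these data known. Named genes were the 10 members, P4HA3, the up to 12 called pathway genes with at least 1 CPM and the largest absolute log2 fold change, HAS1, HYAL4, SPAM1, LYVE1 and STAB2; any other gene was named after its values were seen. Replicates of a group were compared and differed by more than counting noise (chi-square over its degrees of freedom 5.17 to 17.8). The authors' own lists of changed genes were not used. The values of 1 pathway gene, which stays in the counts, are not reported here.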

Additional observations from a re-analysis of the deposited data

How the results depend on the processing

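Of the 135 values of the 9 tested hyaluronan genes under alternative settings, 114 kept their direction and their side of the threshold, 10 became called, 11 lost their call and 0 changed sign. UGDH and CEMIP kept their call under all 15 alternative fits, and P4HA3 under all those run, at 9.06 to 9.24. With the GC and length correction HAS2 became called (-0.50, and -0.49 with the replicate block too), and HYAL2 (-0.11 in both) and HYAL3 (-0.09 in both) lost their call. With no filter on low counts CEMIP2 (0.24) and HMMR (0.69) became called. Leaving out each library in turn gave -0.37 to -0.23 for HYAL2, -0.34 to -0.23 for HYAL3, 0.19 to 0.30 for CEMIP2, 0.11 to 0.17 for CD44 and 0.31 to 0.91 for HMMR, and CEMIP2, CD44 and HMMR were called without P4HA3 replicate 1. The cause was not tested. Over all genes 3147 were called. This count rose to 5530 when P4HA3 replicate 1 was left out, and was 904 when P4HA3 replicate 3 was, 781 when control replicate 1 was and 534 when control replicate 2 was.

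The number of hyaluronan genes called was 4, with 2 at an adjusted p under 0.01 and 2 (without control replicate 1 or 2 or P4HA3 replicate 3) to 7 (without P4HA3 replicate 1) when a library was left out. Higher calls numbered 1, 3 with no filter and 1 to 4 with a library left out. Lower calls numbered 3, 1 at an adjusted p under 0.01 and 1 to 3 with a library left out. Of the other pathway genes 14 were called, 4 at an adjusted p under 0.01 and 4 to 18 with a library left out. Their higher calls were 10, 5 with the correction, 3 at an adjusted p under 0.01 and 3 to 12 with a library left out. Their lower calls were 4, then 7, 1 and 1 to 6. Over all genes, higher calls numbered 1416 of 15130 tested, 1396 with the correction and 2384 of 27552 with no filter. With a library left out they ran from 163 (without control replicate 2) to 2814 (without P4HA3 replicate 1). Lower calls over all genes numbered 1731, 1406 with the correction, and 371 to 2716 without these same libraries. Calls over all genes at an adjusted p under 0.01 are not given here.

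The labels do not say whether samples of equal replicate number were paired. Their deviations from the group means correlated at 0.25, -0.05 and 0.03 for numbers 1 to 3. With the replicate block 3 hyaluronan genes were called higher, CEMIP2 (0.23) and HMMR (0.63) being added, and of the other pathway genes named, BRCA1 (0.39) became called and UGP2 (0.20) and TRA2B (0.18) lost their call. With the replicate block and the correction together 2 were higher, HMMR (0.39) being added, and 9 other pathway genes were lower. Over all genes the replicate block gave 2138 higher and 2175 lower calls, or 4313 in all, compared with 3147 without it. The replicate block and the correction together gave 1761 higher and 1775 lower calls over all genes.

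By the length of the canonical transcript, TPM in control cells was 33.7 for UGDH, 55.1 for HYAL2, 20.7 for HYAL3, 10.8 for CEMIP, 12.7 for CEMIP2, 2.95 for HAS2 and 2.25 for HAS3. In P4HA3-overexpressing cells it was 51.5 for UGDH, 46.6 for HYAL2, 17.7 for HYAL3, 15.8 for CEMIP2, 3.34 for CEMIP, 2.6 for HAS2 and 2.1 for HAS3. HYAL1, at 2 to 7 counts, was too low at this depth for any comparison.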

Other observations

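The smooth muscle marker ACTG2 separated the libraries across the groups: it had 0, 1 and 30 counts in control replicates 1 to 3 and 40, 1 and 44 counts in P4HA3 replicates 1 to 3. In these libraries, in the same order, MYH11 had 2, 1 and 9 and then 7, 1 and 3 counts, and DES had 1, 1 and 6 and then 2, 0 and 8 counts. These genes are named here after their values were seen. All 3 genes were higher in control replicate 3 and P4HA3 replicates 1 and 3 than in the other samples. For MYH11 and DES the gap was as small as 3 against 2 and 2 against 1 counts. The other smooth muscle markers, ACTA2, SMTN, CNN1 and LMOD1, did not follow this pattern. SMTN was lowest in control replicate 3 (85.2 CPM), and ACTA2 was highest in control replicate 2 (8.64 CPM). The part of this pattern in the hyaluronan genes was not tested.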
